A study of Rattus norvegicus with 6 samples.

Results

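Transcription factors of trigeminal sensory neuron identity were followed in rat trigeminal ganglia after injury of the infraorbital nerve, with and without a nerve conduit. They are 10 genes, Pou4f1, Pou4f2, Isl1, Prdm12, Runx1, Runx3, Drgx, Tlx3, Shox2 and Maf, taken by symbol from the 29884 genes of the deposited count table, and all 10 were found. The ganglia came from 6 wild type samples. In the 3 conduit samples the infraorbital nerve had been chronically constricted (CCI-ION, a model of trigeminal neuralgia) and then treated with SFM-Gel-light @NGC, named in the series title as a light-driven nerve conduit. The 3 injury samples had the constriction alone. Uninjured ganglia were not analysed here, so both groups share the constriction and no level here can be set against an intact ganglion. The labels give neither strain, age nor sex. They do not state that the 3 samples of a group came from 3 animals, so the p-values measure the spread between samples, which may be technical. They place the conduit samples at days 17, 18 and 19 after injury in batches 2, 3 and 3, and the injury samples at days 14, 15 and 16 in batches 1, 1 and 2. If these days, which rise by 1 from sample to sample, are the true sampling days, day and group cannot be told apart.

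Sensory neurons of the ganglion are specified in layers. Pou4f1 and Isl1 are switched on in nearly all of them as they leave the cell cycle, and the other factors then help to separate pain and itch neurons from touch neurons. Several remain on in the adult, where they hold the receptors and channels of each class in place. Most of these roles were worked out in mice, mainly in dorsal root ganglia.

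The 6 libraries held between 40172473 and 41903629 counts. Pan-neuronal markers were plentiful in all of them: the 15 genes on that list, among them Nefm, Tubb3 and Rbfox3, summed to 24269 to 34671 CPM (counts scaled to a common library size) in conduit libraries and 26394 to 28831 CPM in injury libraries. Genes of other tissues set some libraries apart. The 9 pituitary markers summed to 6145 CPM in injury sample 1 and to 2.58 to 17.5 CPM in the other 5 libraries, and the 8 skeletal muscle markers present in the table summed to 8433 CPM in conduit sample 2, 497 CPM in injury sample 1 and 7.57 to 16.7 CPM elsewhere. The 14 markers of blood precursors and granulocytes summed to 580.5 to 1324 CPM in conduit libraries and 4477 to 5812 CPM in injury libraries. In every library most of this sum came from the globin genes Hbb, Hba-a1 and Hba-a2. CPM values are scaled by the trimmed mean of M-values (TMM) and replicate numbers are only names.

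All 10 factors were expressed in every library, with between 314 and 9353 counts each, and all 10 passed the filter on low counts. Per length, in the deposited FPKM (fragments scaled by gene length and library size), the order over the 6 libraries was Tlx3, Prdm12, Drgx, Pou4f1, Isl1, Maf, Runx1, Pou4f2, Shox2 and Runx3. The factors fell into 5 tiers that did not overlap in range. Tlx3 averaged 50.2 FPKM and Prdm12 45.9 FPKM, and these neighbours were not separated, since Tlx3 lay above Prdm12 in 4 of 6 libraries. Drgx at a mean of 27.0 FPKM, Pou4f1 at 23.9 FPKM and Isl1 at 20.9 FPKM overlapped with each other in turn. Within libraries, Drgx lay above Pou4f1 in 6 of 6 and Pou4f1 above Isl1 in 5 of 6. Maf stood alone, with all libraries between 12.4 and 14.9 FPKM. Runx1 at 4.89 FPKM, Pou4f2 at 3.96 FPKM and Shox2 at 3.66 FPKM formed the next overlapping tier. Here Runx1 lay above Pou4f2 in 6 of 6 libraries and Pou4f2 above Shox2 in 5 of 6. Runx3 was lowest at a mean of 1.48 FPKM, above 28.3% of all genes tested, whereas Tlx3 was above 91.2% of them.

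**Figure D1:**
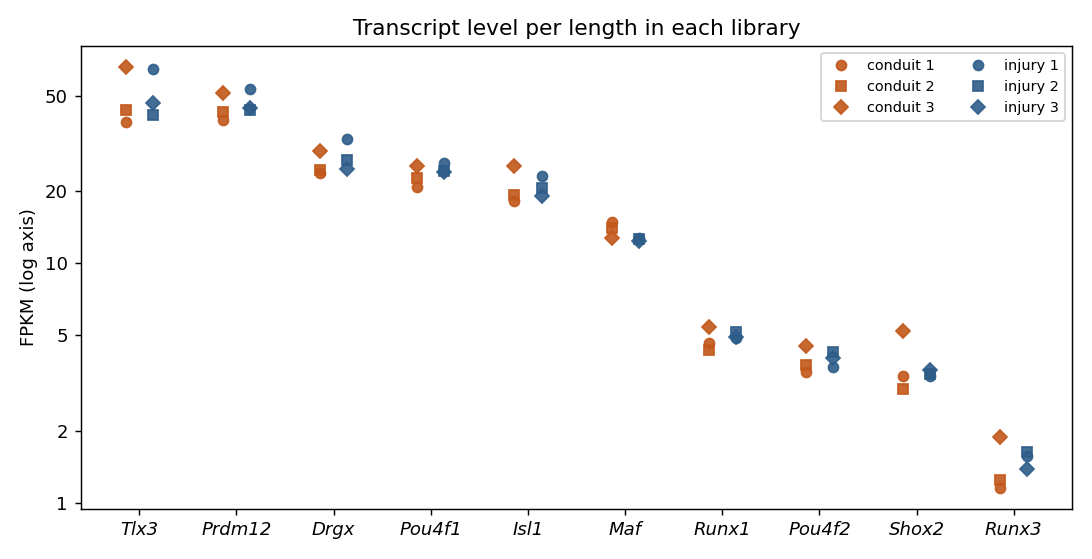
FPKM of the 10 factors on a log axis, 1 symbol per library, with conduit libraries in orange left of injury libraries in blue and genes ordered by their mean. Tlx3 and Prdm12 stand highest and Runx3 lowest, and for every gene but Maf the conduit symbols span the injury symbols or overlap with them.

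The study set conduit against injury ganglia to learn how the treatment acts on gene expression in this pain model. For neuron identity, none of the 10 factors passed the test (edgeR's quasi-likelihood test, Benjamini-Hochberg adjusted p under 0.05 over all 16478 genes tested), in a comparison in which 1 gene, 0.00607% of those tested, did so. At an unadjusted p under 0.05 the test counted 1 of 10 factors, Maf, on the higher side, against 5.35% of all genes (2.99% higher and 2.36% lower). DESeq2 and limma-voom each also counted 1 factor at an unadjusted p under 0.05 and called 0 of 10 after adjustment, against 1.23% and 0.00607% of all genes. The fitted change was below 0 for 4 of 10 factors and for 49.5% of all genes. The median log2 fold change, conduit over injury, was 0.0084 over the 10 factors and 0.0017 over all genes tested. Fold changes ran from 0.951 for Drgx to 1.16 for Shox2, and the 95% intervals of all 10 lay between 0.642-fold and 1.70-fold. The intervals leave room for changes of that size and do not show that levels were equal.

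**Figure D2:**
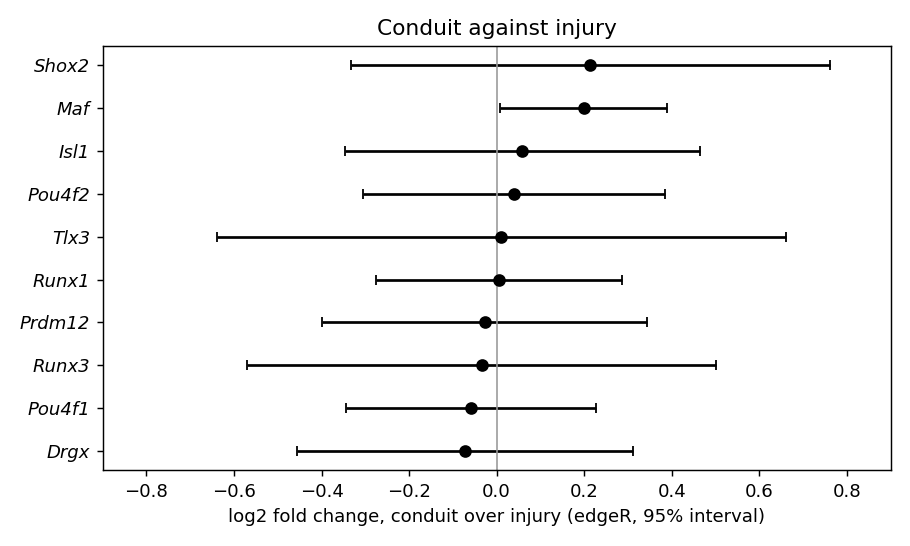
Log2 fold change of each factor, conduit over injury, from edgeR, with bars for the 95% interval. The intervals of 9 factors span 0, and that of Maf runs from 0.0072 to 0.39 before any adjustment over genes.

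Pou4f1 (Brn3a), the POU homeodomain factor found in nearly all trigeminal sensory neurons, was at 116, 131 and 151 CPM in conduit samples 1, 2 and 3 and at 151, 130.2 and 133 CPM in injury samples 1, 2 and 3. Conduit sample 3 and injury sample 1 were equally high and conduit sample 1 was lowest, so the groups overlapped. The log2 fold change was -0.058 (SE 0.12; edgeR adjusted p = 0.99981).

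Isl1, the LIM-homeodomain factor that works beside Pou4f1 in the same neurons, was at 48.0, 53.0 and 72.1 CPM in conduit and 63.3, 52.7 and 50.1 CPM in injury. Again conduit sample 3 was highest and conduit sample 1 lowest, and the groups overlapped (log2 fold change 0.059, SE 0.17; edgeR adjusted p = 0.99981). Isl1 is also active in hormone-producing pituitary cells, and injury sample 1, rich in pituitary transcripts, held the second highest level; their part in it was not tested. Without that library the log2 fold change was 0.18, and without conduit sample 3 it was -0.13.

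Pou4f2 (Brn3b), the relative of Pou4f1 best known from retinal ganglion cells, was at 11.1, 12.4 and 15.2 CPM in conduit and 12.1, 12.9 and 12.7 CPM in injury. The 3 injury libraries lay inside the conduit range. Its log2 fold change was 0.040 (SE 0.15; edgeR adjusted p = 0.99981).

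Among factors tied to pain and itch neurons, Prdm12, a PR-domain zinc finger protein needed for nociceptors to form and mutated in people born without pain sensation, was at 60.4, 67.8 and 83.6 CPM in conduit and 84.4, 64.3 and 67.1 CPM in injury. One library in each group, conduit sample 3 and injury sample 1, stood well above the rest of its group (log2 fold change -0.027, SE 0.16; edgeR adjusted p = 0.99981). The same pair of libraries was high for the homeobox factor Tlx3, which favours excitatory over inhibitory transmitter fate in the mouse dorsal horn. Tlx3 was at 46.8, 54.5 and 84.8 CPM in conduit and 80.8, 48.1 and 56.0 CPM in injury, the widest spread of the 10 at 1.81-fold between its highest and lowest library (log2 fold change 0.011, SE 0.27; edgeR adjusted p = 0.99981). Drgx, the paired-type homeodomain protein whose loss in mice disturbs the wiring of pain pathways, was at 56.3, 60.0 and 74.3 CPM in conduit and 80.8, 61.5 and 58.1 CPM in injury. Injury sample 1 was the highest library for Drgx and conduit sample 1 the lowest, with a log2 fold change of -0.072 (SE 0.16; edgeR adjusted p = 0.99981).

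Prdm12 and Tlx3 were the most alike of these genes over the libraries, with Pou4f1, Isl1 and Drgx close to them. Upstream sequences are shown for those of the 5 whose window ends at the annotated edge of the gene, which that of Drgx, with 4 copies of TAAT, does not. RefSeq windows on build GRCr8, a later build than that of the counts, were matched by symbol for 9 of the 10 factors. The 250 bases before the start of the outermost annotated transcript are given 5′ to 3′ for 4 of them, Prdm12 at chr3:35322712-35322961, plus strand, Tlx3 at chr10:18296552-18296801, minus strand, Isl1 at chr2:49823443-49823692, minus strand and Pou4f1 at chr15:87674644-87674893, minus strand, with capitals for TAAT on either strand, the core recognised by many homeodomain proteins.
Prdm12: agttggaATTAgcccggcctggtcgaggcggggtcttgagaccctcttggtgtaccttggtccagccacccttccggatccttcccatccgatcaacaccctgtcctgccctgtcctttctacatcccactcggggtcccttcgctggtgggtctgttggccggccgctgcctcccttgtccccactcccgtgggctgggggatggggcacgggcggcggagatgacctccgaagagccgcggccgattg
Tlx3: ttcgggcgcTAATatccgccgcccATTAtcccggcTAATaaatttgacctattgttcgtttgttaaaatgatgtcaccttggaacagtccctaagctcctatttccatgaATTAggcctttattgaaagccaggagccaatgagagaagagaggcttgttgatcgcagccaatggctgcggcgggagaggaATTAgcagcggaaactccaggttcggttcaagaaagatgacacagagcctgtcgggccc
Isl1: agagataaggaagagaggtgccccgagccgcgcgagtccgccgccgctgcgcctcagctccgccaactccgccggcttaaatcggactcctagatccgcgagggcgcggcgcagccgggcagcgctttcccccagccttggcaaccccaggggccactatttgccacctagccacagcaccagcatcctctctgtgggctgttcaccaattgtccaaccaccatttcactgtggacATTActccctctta
Pou4f1: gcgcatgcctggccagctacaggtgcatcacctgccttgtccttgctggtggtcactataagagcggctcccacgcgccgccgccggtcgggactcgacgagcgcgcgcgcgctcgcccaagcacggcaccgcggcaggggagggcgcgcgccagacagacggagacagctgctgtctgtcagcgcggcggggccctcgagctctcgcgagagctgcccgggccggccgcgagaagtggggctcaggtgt
Tlx3 held 5 copies of TAAT, Prdm12 and Isl1 held 1 each and Pou4f1 held 0. A second Prdm12 window, farther into the gene, held 3. Over all 33469 windows of this length 57.0% held at least 1 copy and 6.14% held at least 5. The letters CCAAT, on either strand, occurred 2 times in the Tlx3 window and 1 time in the Isl1 window, as they did at least 1 time in 34% of all windows. The Pou4f1 window held 4 copies of the E-box CANNTG. At least 1 copy was found in 65.5% of windows, and the share with at least 4 was not counted. The bases G and C made up 72.4% of the window shown for Pou4f1, 65.6% for Prdm12, 62.8% for Isl1 and 49.2% for Tlx3. The median over all windows was 51.2%. These are matches of letters and no binding was measured.

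Runx1 belongs to the runt-domain factors and in mice directs the non-peptidergic pain and itch neurons. It was at 28.9, 28.0 and 36.1 CPM in conduit and 31.3, 30.9 and 30.3 CPM in injury. The injury libraries lay close together and inside the conduit range (log2 fold change 0.0060, SE 0.12; edgeR adjusted p = 0.99981). Runx1 is also a blood stem cell and myeloid factor. The summed blood precursor and granulocyte markers were higher in every injury library than in every conduit library, by the values given above, but most of each sum was globin. Of the 14 genes 11 were lower in conduit at an unadjusted edgeR p under 0.05, with 0 called by edgeR and 8 called lower by DESeq2. The precursor genes Kit, at means of 41.6 CPM in conduit and 40.5 CPM in injury, and Gata2, at 4.02 and 4.22 CPM, overlapped between the groups. The Runx1 ranges overlapped. Ptprc, the leukocyte marker CD45, was at 13.4, 3.89 and 2.89 CPM in conduit and 2.41, 17.7 and 6.0 CPM in injury. The part of blood cells in the Runx1 level was not tested.

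Runx3, which in mice supports the Ntrk3 neurons of muscle sense and holds back Ntrk2, was at 7.58, 8.46 and 13.1 CPM in conduit and 10.6, 10.3 and 9.04 CPM in injury. Conduit sample 3 was high, conduit samples 1 and 2 lay below every injury library, and the group means were 9.72 ± 2.98 CPM in conduit and 9.96 ± 0.81 CPM in injury (SD, n = 3 each; log2 fold change -0.034, SE 0.23; edgeR adjusted p = 0.99981). Runx3 is active in T and natural killer cells too. The 11 markers of those cells summed to 15.1 to 25.7 CPM in conduit and 19.0 to 32.7 CPM in injury and most of each sum was Cd4, a gene that macrophages also make. The part of these cells in the Runx3 level was not tested.

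Shox2, a homeodomain factor that in mice promotes Ntrk2 touch neurons, was at 10.3, 9.44 and 16.9 CPM in conduit and 10.6, 10.1 and 10.8 CPM in injury. The conduit mean of 12.2 ± 4.08 CPM stood above the injury mean of 10.5 ± 0.335 CPM (SD, n = 3 each) through conduit sample 3 alone. The log2 fold change was 0.21 (SE 0.23; edgeR adjusted p = 0.99981), and it was -0.093 without that library.

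Maf (c-Maf), the basic leucine zipper factor of rapidly adapting touch receptors in mice, was the one factor whose groups did not overlap. It was at 226, 220.4 and 206 CPM in conduit and 199, 184 and 186 CPM in injury. All 3 conduit libraries lay above all 3 injury libraries, as they did for 5.41% of all genes tested, so 1 of 10 factors is close to that background. The means were 217.5 ± 9.93 CPM in conduit and 189.5 ± 8.2 CPM in injury (SD, n = 3 each). The log2 fold change was 0.20 (SE 0.081). Adjusted over all genes the difference did not pass (edgeR adjusted p = 0.915 from an unadjusted p of 0.0439, DESeq2 adjusted p = 0.497, limma-voom adjusted p = 0.99996).

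Maf also departed from the other factors in its order of libraries. It is made by macrophages and other non-neuronal cells besides neurons, and a bulk ganglion does not assign its reads to cells. The 11 satellite glia and Schwann cell markers summed to 47984, 39698 and 46437 CPM in conduit and 36316, 28882 and 36835 CPM in injury, and here too the groups did not overlap; 10 of these 11 genes were higher and 1 lower, with 0 called by edgeR, 1 by DESeq2 and 1 at an unadjusted edgeR p under 0.05. The 11 macrophage markers summed to 229, 107 and 102 CPM in conduit and 102, 151 and 121 CPM in injury. Their highest value was in conduit sample 1, where Maf was highest, and their next highest in injury sample 2, where Maf was lowest. The part of these cells in the Maf level was not tested.

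The remaining 9 factors moved largely together from library to library, and that spread was wider than any difference between the groups. Conduit sample 3 held the highest level of 7 factors and injury sample 1 that of 2, Prdm12 and Drgx, while conduit sample 1 held the lowest level of 7. Over the 6 libraries the 36 pairs among the 9 factors had Pearson's r between 0.44 and 0.99 in log2 CPM, and Maf had r between -0.40 and -0.023 with each of them. Without conduit sample 3 the median log2 fold change of the 10 factors was -0.15, and without conduit sample 1 it was 0.13. The correlations describe 6 libraries of 2 groups that share their scaling, and carry no test.

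**Figure D3:**
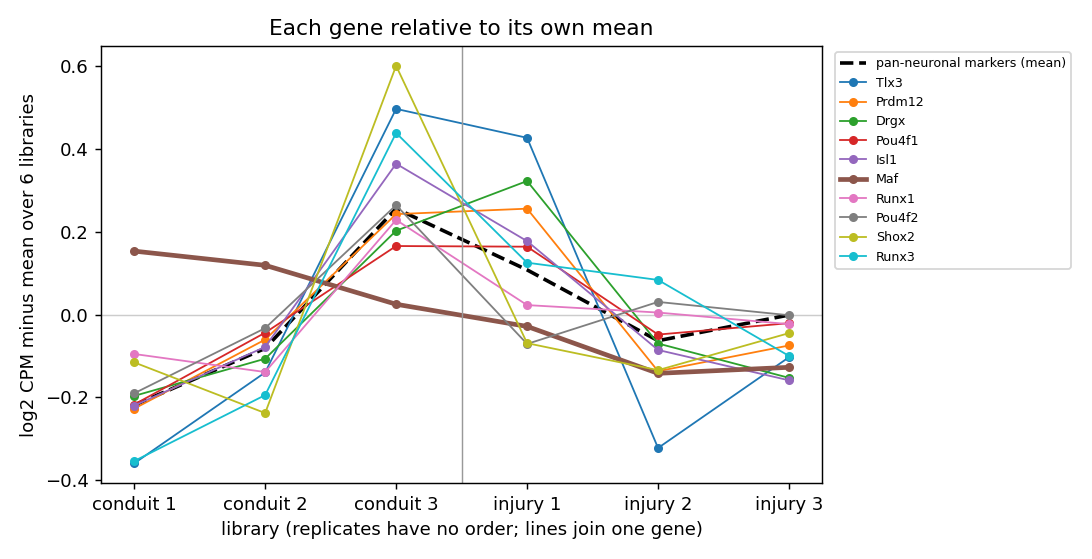
Log2 CPM of each factor minus its own mean over the 6 libraries, conduit libraries left of injury libraries, with the mean of the pan-neuronal markers as a dashed line. Of the 10 factors 9 peak in conduit sample 3 or injury sample 1 as the neuronal markers do, and Maf, the thick line, does not.

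The general neuronal markers followed the same order. Their mean log2 CPM was 9.56, 9.70 and 10.04 in conduit samples 1, 2 and 3 and 9.89, 9.72 and 9.78 in injury samples 1, 2 and 3, a difference of -0.029 for conduit minus injury (exact two-sided permutation p = 0.8, where 3 samples against 3 allow no p under 0.1). Fewer neurons in the dissected piece and less RNA per neuron cannot be told apart in such samples. Set against these markers within each library, the standard deviation over the 6 libraries became smaller for 9 of 10 factors. It was 0.052 in place of 0.15 for Pou4f1 and 0.082 in place of 0.20 for Prdm12, on the log2 scale. For Maf it was larger, 0.23 in place of 0.12.

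Of the 15 markers 8 were higher and 7 lower and 0 were called. Syt1, a synaptic vesicle protein, averaged 148 ± 16.9 CPM in conduit and 176 ± 6.17 CPM in injury without overlap (SD, n = 3 each), beside 4.22% of all genes that were lower in this way. Its log2 fold change was -0.25 (SE 0.10; edgeR adjusted p = 0.915). Gap43, a growth cone protein, averaged 165 CPM in conduit and 194 CPM in injury, Elavl4 189 CPM in conduit and 167 CPM in injury, and Avil 606 CPM in conduit and 653 CPM in injury, all with overlap.

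Relative to neuronal markers, the conduit and injury groups again showed no difference beyond their spread. The mean log2 difference, conduit minus injury, was -0.034 for Pou4f1, 0.074 for Isl1, 0.028 for Tlx3 and -0.00039 for Prdm12, with exact two-sided permutation p between 0.4 and 1.0 for these 4. Shox2 had the smallest p, at 0.3, with a difference of 0.19. Maf had a difference of 0.23 (exact two-sided permutation p = 0.4), and on this scale its groups overlapped, because conduit sample 3 was the lowest library at -2.35 against -2.25, -2.19 and -2.24 in injury.

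**Figure D4:**
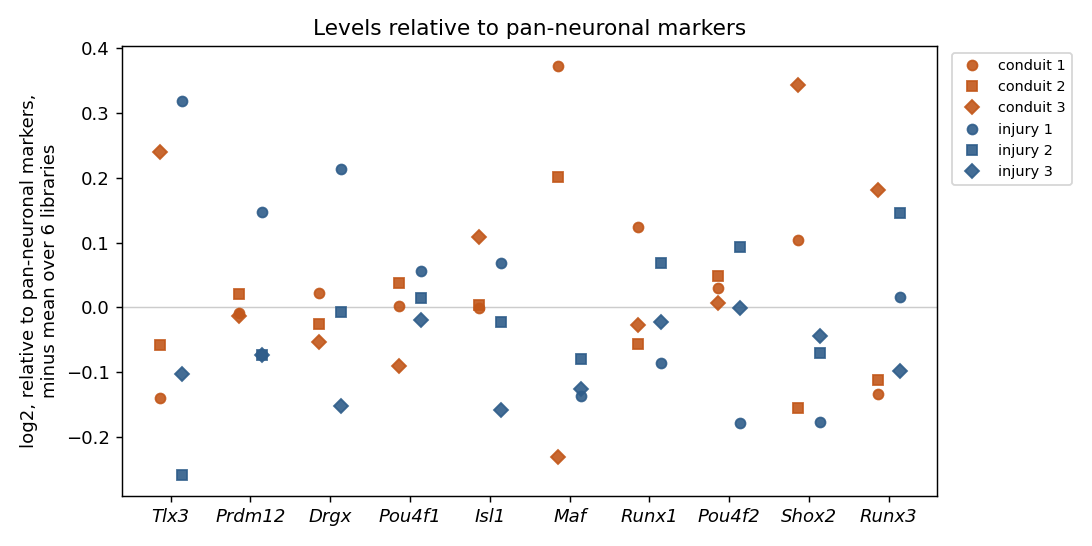
Log2 level of each factor relative to the mean of 15 pan-neuronal markers in the same library, centred on the gene's mean over the 6 libraries, conduit in orange left of injury in blue. Every factor's groups overlap on this scale, Maf included.

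Batch 2 is the one batch that holds a library of each group, conduit sample 1 and injury sample 3. Within it 9 of 10 factors were lower in conduit, by log2 differences from -0.044 for Drgx to -0.26 for Tlx3, and Maf was higher by 0.28. The median over all genes tested was -0.0012. The pan-neuronal mean was lower there too, by -0.22 on the log2 scale. Taken relative to it, only Runx3 at -0.035 and Tlx3 at -0.038 were lower in conduit. The other factors were higher, from 0.021 for Pou4f1 to 0.50 for Maf, with Prdm12 at 0.065 and Isl1 at 0.16. With 1 library per group these values have no replicate check, and for Pou4f2, Isl1, Runx1, Tlx3 and Shox2 the sign within batch 2 was opposite to that over all libraries.

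A wider set of 50 factors of the sensory lineage was examined beside the 10. The test covered 43 of them and called none in either direction; 22 were higher and 21 lower, with a median log2 fold change of 0.016. One, Zfhx4, a large zinc finger homeodomain protein, had an unadjusted p under 0.05. It was at 4.05, 4.52 and 3.52 CPM in conduit and 5.69, 7.92 and 5.37 CPM in injury, with no overlap, as for 4.22% of all genes that were lower in this way (log2 fold change -0.65, SE 0.22; edgeR adjusted p = 0.814). The nuclear receptor Rora was at 11.8, 10.5 and 10.4 CPM in conduit and 8.38, 9.63 and 9.23 CPM in injury, also without overlap, as for 5.41% of all genes that were higher in this way (log2 fold change 0.26, SE 0.13; edgeR adjusted p = 0.99981). Insm1, a zinc finger factor of newborn neurons and endocrine cells, was at 0.869, 0.854 and 0.854 CPM in conduit and 3.01, 0.733 and 1.76 CPM in injury, with its highest level in the pituitary-rich injury sample 1. Meis1, a homeodomain cofactor, averaged 5.67 ± 0.665 CPM in conduit and 6.81 ± 0.77 CPM in injury. The Meis1 ranges overlapped. The proneural factor Neurod1 averaged 0.279 CPM in conduit and 0.186 CPM in injury. Neurog1, which starts neurogenesis in the embryonic trigeminal ganglion, had no count in any of the 6 libraries.

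The 11 partners and cofactors of these proteins gave the same picture, with 5 higher, 6 lower and 0 called by edgeR, none at an unadjusted p under 0.05 and none called by DESeq2 or limma-voom. Cbfb, the obligate partner of the Runx proteins, was at 158, 192 and 156 CPM in conduit and 174, 138 and 173 CPM in injury. Klf7, a zinc finger factor that acts with Pou4f1 in mice, was at 119, 121 and 108 CPM in conduit and 119, 124 and 129 CPM in injury. Neither gene separated the groups. Lmo4, a LIM-only protein, averaged 105 CPM in conduit and 92.4 CPM in injury without overlap, beside 5.41% of all genes that were higher in this way. Ldb1, the bridging partner of LIM-homeodomain proteins such as Isl1, averaged 57.6 CPM in conduit and 65.1 CPM in injury, with overlap. Tle4, a corepressor, averaged 41.6 CPM in conduit and 45.3 CPM in injury without overlap, beside 4.22% of all genes that were lower in this way.

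The receptors and channels that mark the neuron classes downstream of these factors were likewise not called, 0 of 15 by edgeR, DESeq2 or limma-voom and 0 at an unadjusted edgeR p under 0.05; 6 were higher and 9 lower, with a median of -0.071. Mrgprd, a receptor of non-peptidergic neurons that depends on Runx1 in mice, was at 21.5, 20.3 and 29.0 CPM in conduit and 25.2, 24.3 and 24.9 CPM in injury, with the injury libraries inside the conduit range as for Runx1. The touch neuron receptor Ntrk2 was at 305, 236 and 212 CPM in conduit and 228, 235 and 265 CPM in injury. Ntrk3 was at 123, 139 and 99.9 CPM in conduit and 94.4, 129.7 and 124 CPM in injury. Its lowest levels were in conduit sample 3 and injury sample 1. Pain neuron factors such as Prdm12 had their highest levels there, but so did Runx3, Pou4f1, Isl1 and the mean of the pan-neuronal markers. Scn10a, the sodium channel of pain neurons, was at 277, 318 and 307 CPM in conduit and 368, 319 and 335 CPM in injury, the one gene of the 15 without overlap, beside 4.22% of all genes that were lower in this way (log2 fold change -0.18, SE 0.097; edgeR adjusted p = 0.99981). Gfra2, the neurturin receptor, averaged 57.6 CPM in conduit and 64.5 CPM in injury, with overlap. Pvalb, a calcium-binding protein of muscle-sense neurons and of fast muscle fibres, was at 80.7, 409.7 and 118 CPM in conduit and 100.2, 68.4 and 74.1 CPM in injury. Its high value came from conduit sample 2, the library with 8433 CPM of muscle markers, whose part in it was not tested.

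**Figure D5:**
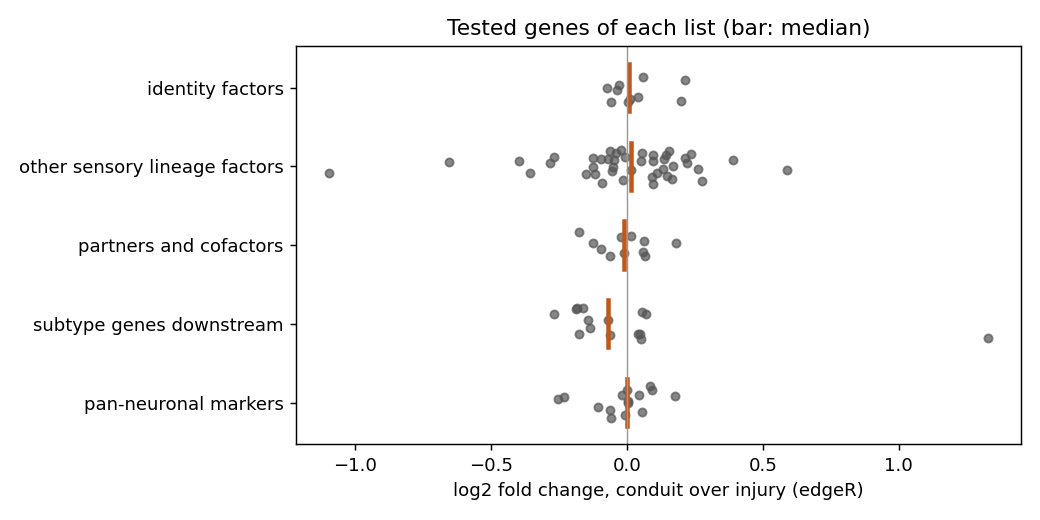
Log2 fold changes, conduit over injury, of every tested gene on 5 lists, with an orange bar at each list's median. The medians lie between -0.071 and 0.016, and the point far to the right is Pvalb.

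Hox genes, most of which pattern the body axis from the hindbrain back and mark spinal rather than trigeminal ganglia, checked the tissue. Of 26 on the list, 10 had no count in any library, Hoxa5 among them, and 15, these included, never reached 3 counts in any library. Their sum was 32.5 to 45.1 CPM in conduit and 32.5 to 46.4 CPM in injury. Most of it came from Hoxd1, picked out after its values were seen and known in mice as a gene of pain neurons, at 29.1, 30.7 and 41.1 CPM in conduit and 43.0, 31.0 and 29.0 CPM in injury. It was high in conduit sample 3 and injury sample 1, as Prdm12 and Tlx3 were.

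The genes whose log2 CPM ran most like each factor over the 6 libraries were taken from 13415 candidates, so values of r close to 1 arise readily and say nothing of control or function. Pou4f1 ran most like Pcdha4, a clustered protocadherin, at r = 0.999 over 6 libraries. Prdm12 ran most like Dapk3 and Dctn2, a dynactin subunit, and Tlx3 like Wbp2 and Ap1s1. Isl1 was followed most closely by Polr2g, Runx1 by Rnf26, Shox2 by Gipc2, Pou4f2 by Fbxo34 and Maf by Akr1b1, an aldose reductase, with r from 0.985 to 0.999 over 6 libraries.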

How the data were processed

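RNA of 6 rat trigeminal ganglion samples was extracted with TRIzol and sequenced in read pairs as mRNA libraries, per the labels' protocols and the design text. HISAT2, HTSeq, SAMtools, fastp and DESeq2 and the build mRatBN7.2 are named in the submitters' processing notes. The strand setting, annotation and tool versions are not stated there, so reads of genes overlapping on opposite strands cannot be told apart. The authors deposited raw counts for each gene, summing to 40172473 to 41903629 in a library. The deposited FPKM are those counts per length and library total: for 15192 of 15192 genes checked both gave the same length in all 6 libraries within 0.1%.

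Groups came from the sample titles. In R 4.3.3, edgeR 4.0.16 kept genes by filterByExpr (minimum count 10), scaled by TMM and ran the robust quasi-likelihood test with no covariate (4 residual degrees of freedom, biological coefficient of variation 0.295). SE and 95% intervals follow from its F statistic. DESeq2 1.42.0 and limma 3.58.1 were alternatives. Log2 CPM used a prior count of 2. The scripts were tested on simulated data. Replicates of a group differed by more than sampling noise.

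The factors and gene lists were chosen with earlier results of these data known. All 10 factors are given per library, in CPM in the text and in FPKM in the plot. Of each other list the rule named up to 4 tested genes of smallest p, with Klf7, Cbfb, Ntrk2, Ntrk3, Mrgprd, Pvalb, Hoxa5, Neurod1, Prl, Mki67 and Ptprc, and per factor the 2 genes of highest r with mean log2 CPM of at least 1; those of the marker lists of other tissues are given as sums. A few genes under this rule are not reported. Bone and cartilage markers summed to 739 to 932 CPM in conduit and 811 to 980.2 CPM in injury, and Mki67 was 3.16 to 5.74 CPM in conduit and 3.51 to 43.8 CPM in injury. Prl was 0 to 0.1 CPM in conduit and 0.0482 to 954 CPM in injury. Settings tried are other scalings, filters and tools, the FPKM with a pseudocount of 1 or 0.1, replicate number or batch in the fit, each library left out and batch 2 alone.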

Additional observations from a re-analysis of the deposited data

How the results depend on the processing

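No factor was called under any of the 19 alternatives with a test, and Maf alone kept its sign in all of them and in batch 2 alone; its adjusted p ranged from 0.497 to 0.99998. The median log2 fold change of the 10 factors ranged from -0.15 without conduit sample 3 to 0.13 without conduit sample 1 with each library left out, and its lowest and highest values relative to neuronal markers were -0.0012 and 0.067. With each library left out the log2 fold changes ranged as follows: Pou4f1 -0.16 to 0.031, Pou4f2 -0.096 to 0.14, Isl1 -0.13 to 0.18, Prdm12 -0.17 to 0.11, Runx1 -0.12 to 0.081, Runx3 -0.31 to 0.12, Drgx -0.20 to 0.098, Tlx3 -0.28 to 0.27, Shox2 -0.093 to 0.38 and Maf 0.17 to 0.24. The signs of the other 9 factors therefore depend on the libraries; the cause was not tested. Signs opposite to those in the report were found with upper quartile scaling for Runx1 at -0.022 and Tlx3 at -0.016, with limma-voom for Runx1 at -0.0038 and Tlx3 at -0.0011, with log2(FPKM + 1) for Pou4f2 at -0.021, Isl1 at -0.0098, Runx1 at -0.048 and Tlx3 at -0.055, with log2(FPKM + 0.1) for Pou4f2 at -0.027, Isl1 at -0.011, Runx1 at -0.057 and Tlx3 at -0.056, with batch in the fit for Pou4f2 at -0.19, Isl1 at -0.061, Runx1 at -0.072, Tlx3 at -0.26 and Shox2 at -0.071 and in batch 2 alone for Pou4f2 at -0.19, Isl1 at -0.061, Runx1 at -0.072, Tlx3 at -0.26 and Shox2 at -0.070. Batch 1 held only injury libraries and batch 3 only conduit libraries. The change with batch in the fit therefore rests on conduit sample 1 and injury sample 3, the same pair as batch 2 alone, and is not a separate check. Another alternative, chosen after seeing the data, left out conduit sample 2 and injury sample 1. Opposite signs there were Pou4f1 at 0.033, Prdm12 at 0.14, Runx3 at 0.11 and Drgx at 0.14. Same-numbered samples of the groups did not deviate together (r = -0.42, 0.057 and -0.071 across genes), so they share only a number; with the replicate block Runx1 was at -0.0034 and 0 genes were called in all. Over all genes edgeR called 1 gene in the report, 0 with pan-neuronal scaling or batch, 6 with no filter, 13 without conduit sample 2 and injury sample 1, and 0 to 38 with each library left out, namely 38 or 35 when injury sample 1 or 3 was dropped and 6 or 0 when conduit sample 1 or 3 was. DESeq2 called 210 genes, and limma on FPKM 7 or 3 with a pseudocount of 1 or 0.1. The median of all genes moved by 0.041 at most under another scaling. Counting error is small for these factors, whose lowest count was 314.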

Other observations

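Close relatives of the factors, picked out after their values were seen, showed the same order of libraries. Isl2, the relative of Isl1, was at 59.3, 62.9 and 93.1 CPM in conduit and 98.0, 70.0 and 70.9 CPM in injury. Tlx2, the relative of Tlx3, was at 54.1, 62.9 and 97.3 CPM in conduit and 85.7, 62.4 and 67.3 CPM in injury, and Mafa, a large Maf protein of early touch neurons in mice, at 34.4, 49.4 and 59.9 CPM in conduit and 58.8, 35.3 and 39.1 CPM in injury. For all 3 the highest levels were in conduit sample 3 and injury sample 1, and the groups overlapped. Pou4f3, the third Brn3 gene, was at 20.2, 23.0 and 25 CPM in conduit and 25.1, 16.6 and 19.5 CPM in injury.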
